A study of Mus musculus with 84 samples.

Results

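Messenger RNA of 10 genes of the growth hormone, STAT5 and IGF axis was followed across 7 mouse tissues. The genes are Ghr, Igf1, Igfals, Stat5a, Stat5b, Socs2, Cish, Bcl6, Cux2 and Elovl3, taken by their symbols from a table of 49671 genes, in which each of the 10 symbols matched a single row. Liver, where growth hormone has its best studied targets, is described first, and then epididymal fat, aorta, skeletal muscle, heart, hypothalamus and hippocampus.

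The mice were ob/ob, which lack working leptin in every cell because of a nonsense mutation in the Lep gene, or wild type (WT), and each genotype was kept on a high-fat diet (HFD) or a normal diet (ND). The 4 groups were thus ob/ob mice on HFD, ob/ob mice on ND, WT mice on HFD and WT mice on ND, with 3 mice each, and 1 library per mouse and tissue gave 84 libraries in 28 groups of 3. Dissection came at 20 weeks. The labels give neither strain nor sex, and do not say whether the 20 weeks are age or time on the diet. The Lep mutation leaves a transcript, so the level of Lep RNA does not check the genotype labels. In the 84 libraries the Y-linked gene Ddx3y ranged from 46.01 to 148 CPM and Xist from 0 to 0.259 CPM, the pattern of male tissue. CPM are counts relative to a library size scaled by TMM, a correction for differences in composition between libraries.

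Growth hormone is released by the pituitary in pulses, widely spaced in male rodents and near continuous in females. It binds its receptor GHR, whose partner kinase JAK2 phosphorylates the transcription factors STAT5A and STAT5B, and these enter the nucleus and switch on target genes. The targets include Igf1, which encodes the growth factor that the liver secretes, Igfals, which encodes the acid-labile subunit that holds IGF1 and a binding protein in a stable complex in blood, and Socs2 and Cish, which encode inhibitors that close the loop. In mouse liver Bcl6 encodes a repressor found mostly in males that competes with STAT5 for its sites, Cux2 encodes a factor found mostly in females, and Elovl3 encodes a fatty acid elongase found mostly in males. In bulk tissue, fewer cells of a type and less RNA per cell cannot be told apart.

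On GRCm38 the receptor gene Ghr lies on chromosome 15 from 3317760 to 3583492, Igf1 on chromosome 10 from 87858265 to 87937042 and Igfals on chromosome 17 from 24878770 to 24882008. Stat5b (100780731 to 100850724) and Stat5a (100859351 to 100885169) are neighbours on chromosome 11. Socs2 lies on chromosome 10 from 95385362 to 95417180 and Cish on chromosome 9 from 107296026 to 107302784. Bcl6 lies on chromosome 16 from 23965052 to 23988852, Cux2 on chromosome 5 from 121856366 to 122050102 and Elovl3 on chromosome 19 from 46131897 to 46135307. Stat5a overlaps Stat3 on the other strand, which had up to 2985 counts, and the counting did not use strand, so reads in the shared stretch cannot be told apart. Stat5a and Stat5b are also near-identical copies in much of their coding sequence, so their split of reads is uncertain. Igf1 overlaps Igf1os (up to 43 counts), and Cish, Bcl6 and Cux2 overlap predicted genes with up to 7 counts.

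STAT5 binds palindromes of the form TTCNNNGAA. Promoter windows from RefSeq (GRCm38.p6, 250 bases before to 50 after a start site) were at hand for 8 members with 15 start sites, and Socs2 and Elovl3 were not among them. The motif, which reads the same on both strands, was in 5 of the 15 windows, of 3 members, against 8.30% of all 32851 promoters in the table. The windows of Cish and Igfals and the inner window of Bcl6 are shown because these 3 genes differed between genotypes in liver and hold the motif, which is printed in capitals. The windows of Ghr, Stat5a and Cux2, which also differed between genotypes in liver, held 0 motifs. Those of Igf1 and Stat5b, which were not called for genotype over both diets there, held 0 as well.

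Cish, chr9:107296409-107296708, plus strand: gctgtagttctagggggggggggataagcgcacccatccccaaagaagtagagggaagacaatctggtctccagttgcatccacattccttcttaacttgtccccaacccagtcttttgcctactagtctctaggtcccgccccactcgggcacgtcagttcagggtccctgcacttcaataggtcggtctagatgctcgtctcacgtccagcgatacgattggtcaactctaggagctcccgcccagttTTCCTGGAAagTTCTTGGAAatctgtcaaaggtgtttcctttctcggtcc
Bcl6, chr16:23981234-23981533, minus strand: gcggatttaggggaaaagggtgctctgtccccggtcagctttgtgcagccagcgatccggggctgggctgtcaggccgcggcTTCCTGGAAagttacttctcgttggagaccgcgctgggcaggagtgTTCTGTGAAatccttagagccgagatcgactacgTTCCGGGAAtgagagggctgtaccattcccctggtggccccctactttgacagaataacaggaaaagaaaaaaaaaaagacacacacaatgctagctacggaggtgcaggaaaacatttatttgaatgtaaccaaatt
Igfals, chr17:24877981-24878280, plus strand: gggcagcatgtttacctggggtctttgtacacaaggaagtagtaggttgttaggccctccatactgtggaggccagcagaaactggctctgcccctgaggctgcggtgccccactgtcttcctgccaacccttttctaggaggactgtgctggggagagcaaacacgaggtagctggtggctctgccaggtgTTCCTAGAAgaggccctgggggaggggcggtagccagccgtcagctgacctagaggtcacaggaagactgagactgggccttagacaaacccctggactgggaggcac

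The Cish window held 2 motifs, which began at the start site and 11 bases downstream of it, and 0.457% of promoters held at least 2. The Bcl6 window held 3, which began 168, 122 and 88 bases upstream of the start, and 0.0335% of promoters held at least 3. The Igfals motif began 58 bases upstream. A second Bcl6 window (chr16:23988803-23989102) and a second Igfals window (chr17:24877594-24877893) each held 1, which began 118 and 236 bases upstream. The wider spacing with 4 bases between TTC and GAA, which STAT6 is known to bind, was in 6.95% of all promoters and in 0 of the 15 windows. These are matches of letters, not measured binding.

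Levels of different genes or tissues were compared per length, as TPM, the share of a library's transcripts after division by gene length. In WT mice on ND, Ghr was highest in epididymal fat at 368 ± 42.8 TPM (SD, n = 3), then in liver at 111 ± 3.70 TPM, with no overlap between them, and lowest in hippocampus at 2.48 ± 0.268 TPM. Aorta (47.4 ± 5.39 TPM) and muscle (34.05 ± 8.45 TPM) overlapped. Igf1 and Igfals, the parts of the circulating complex, were both highest in liver, at 102 ± 6.62 and 95.6 ± 14.01 TPM, with epididymal fat next at 50.6 ± 5.55 and 59.6 ± 7.67 TPM. In the other 5 tissues Igf1 stayed between 2.82 and 7.95 TPM on average, and Igfals was near 0 in both brain regions.

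The transcription factor Stat5b was highest in muscle at 74.9 ± 22.3 TPM, and epididymal fat and hypothalamus followed with overlapping levels. Stat5a was highest in epididymal fat at 20.5 ± 0.572 TPM. Stat5b exceeded Stat5a on average in every tissue, at 23.04 ± 0.575 against 3.31 ± 0.557 TPM in liver. Among the inhibitors, Cish was highest in heart at 10.8 ± 2.56 TPM, and Socs2 was highest in hippocampus (6.10 ± 0.868 TPM) and heart (5.62 ± 0.846 TPM), which overlapped.

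Bcl6 was highest in hippocampus at 20.1 ± 2.81 TPM, overlapping aorta, and lowest in heart at 3.60 ± 0.513 TPM. Cux2, which marks upper-layer neurons of the cortex, was at 17.1 ± 1.65 TPM in hippocampus and 14.6 ± 4.08 TPM in hypothalamus, which overlapped, and under 1 TPM on average elsewhere. Elovl3 was highest in liver at 843 ± 264 TPM, then in aorta at 212 ± 118 TPM, where fat around the vessel also holds this gene, and near 0 in heart and brain.

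**Figure D1:**
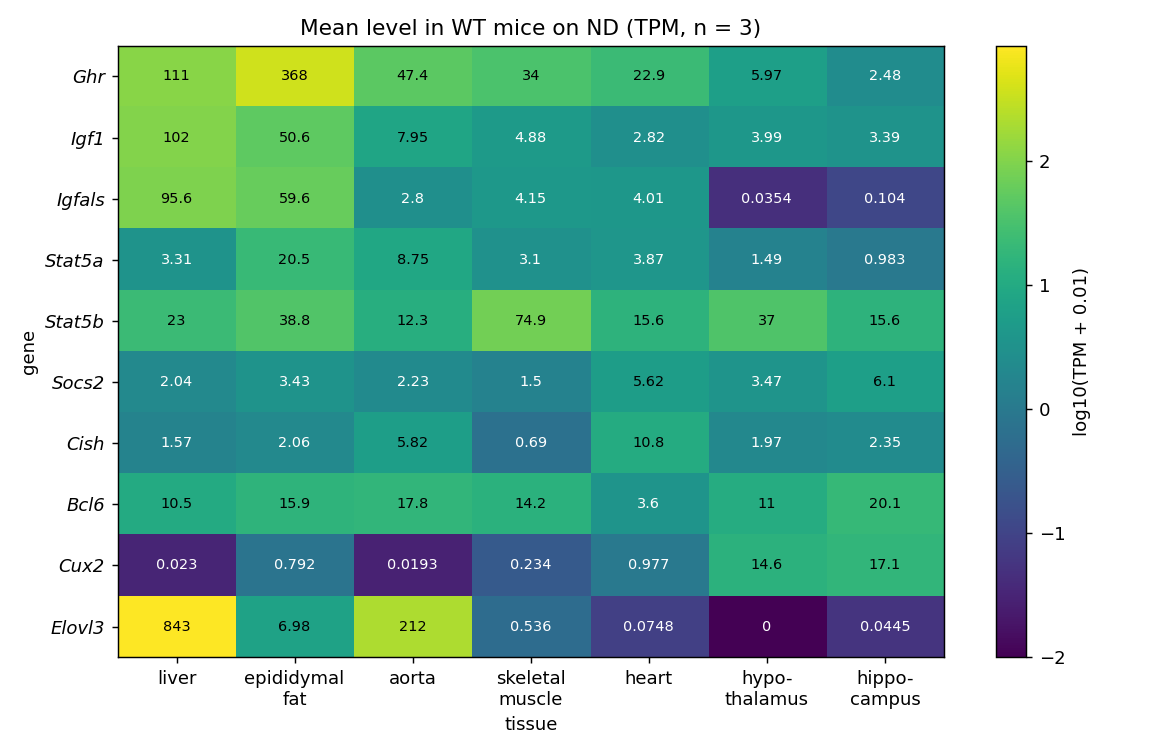
Mean level of each of the 10 genes (rows) in each of the 7 tissues (columns) of WT mice on ND, in TPM (n = 3 mice); the colour is on a log10 scale and the printed numbers are the TPM. Elovl3 in liver at 843 TPM and Ghr in epididymal fat at 368 TPM stand highest, and Cux2 is near 0 in liver and aorta.

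The liver libraries held 10860694 to 14004875 counts. All 9 hepatocyte markers with a row in the table were found in every group, with summed levels of 83640 to 109200 CPM in ob/ob mice on HFD, 109200 to 116400 on ND, and 100300 to 110100 CPM in WT mice on HFD and 132300 to 140600 on ND. The 8 adipocyte markers, several of which fatty hepatocytes also express, summed to 232 to 279 and 301 to 364 CPM in ob/ob mice on HFD and ND, against 162 to 182 and 40.9 to 57.2 CPM in WT mice on HFD and ND. The 10 macrophage markers summed to 384 to 709, 313 to 351, 374 to 428 and 129 to 432 CPM in the same order. These sums moved with the groups, and their part in the liver results was not tested.

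In liver, over both diets, ob/ob mice had less RNA for the GH receptor and for the male-type genes Bcl6 and Elovl3. They had more for the inhibitor Cish and the female-type gene Cux2. Socs2 was also higher over both diets, but its means were alike on ND (10.45 CPM in ob/ob and 10.24 CPM in WT livers). Its mean in WT livers on HFD was 1.83 CPM. Igf1 was not called for genotype over both diets, and its effects on ND and on HFD had opposite signs. As the mean over both diets, 4 of the 10 members were higher and 4 lower in ob/ob mice at an adjusted p under 0.05, in a tissue where 42.8% of all 13246 genes tested were called. On ND alone 2 rose and 4 fell (background 36.4%), and on HFD alone 3 rose and 3 fell (background 18.5%). The HFD lowered 3 members in WT mice, where 21.8% of genes were called. In ob/ob mice the HFD gave 0 calls among the members by edgeR and by DESeq2, with 1 member at an unadjusted p under 0.05 (background 0.913%). The difference of the diet effects was called for 2 members (background 6.17%). With no filter on low counts it was called for Igf1 (0.76, adjusted p = 4.13e-04), Igfals (0.53, adjusted p = 0.0187), Cish (0.85, adjusted p = 0.0447) and Stat5a (-0.63, adjusted p = 0.0288) as well. Calls with no filter, here and below, are not firmer, because adjusted p then moved far at nearly the same fold change.

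**Figure D2:**
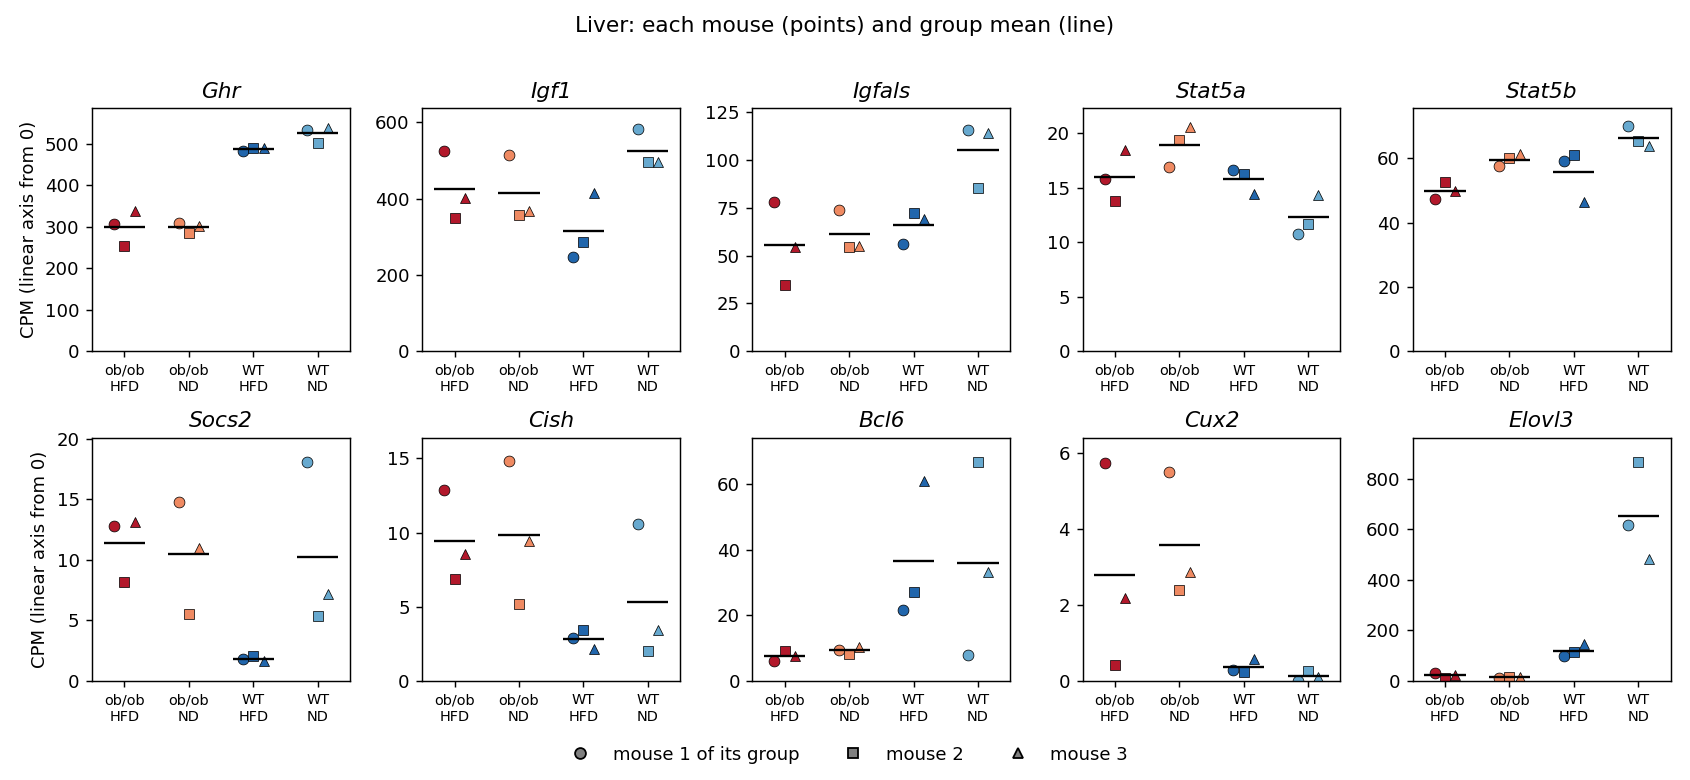
Liver level of each of the 10 genes in CPM on linear axes from 0, for ob/ob HFD, ob/ob ND, WT HFD and WT ND mice from left to right; each point is 1 mouse, its shape gives its number in the group, and the line is the group mean (n = 3). Ghr and Elovl3 of all 6 ob/ob livers lie below all 6 WT livers.

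The receptor gene Ghr was at 307, 254 and 337 CPM in the 3 ob/ob livers on HFD and 308, 285 and 301 CPM in those on ND. WT livers held 482, 490.2 and 489 CPM on HFD and 533, 502 and 537 CPM on ND. All 6 ob/ob livers lay below all 6 WT livers, at a log2 fold change of -0.76 ± 0.07 (SE, adjusted p = 3.77e-06). The difference was called on ND (-0.81 ± 0.10, adjusted p = 4.56e-05) and on HFD (-0.70 ± 0.10, adjusted p = 5.52e-04), and each of these calls held with any 1 mouse left out. The diet effect on Ghr was not called in either genotype (95% interval -0.30 to 0.09 in WT mice).

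Igf1, the secreted growth factor, was at 526, 349 and 403 CPM in ob/ob livers on HFD and 515, 358 and 368 CPM on ND, against 247, 285 and 414 CPM in WT livers on HFD and 584, 497 and 495 CPM on ND. The genotypes overlapped, and their mean difference was 0.04 ± 0.14, adjusted p = 0.825 (95% interval -0.23 to 0.32). In WT mice Igf1 fell on HFD by 0.74 ± 0.20 on the log2 scale (adjusted p = 0.0201), with no overlap between the diets. That call was lost without WT HFD mouse 1 or 2 or WT ND mouse 1 (-0.67 to -0.61, adjusted p = 0.0681 to 0.0748). The genotype effect on HFD was not called with all mice (0.43 ± 0.20, adjusted p = 0.153), and was without WT HFD mouse 3 (0.68, adjusted p = 0.0309), where the difference of the diet effects was called as well (1.02, adjusted p = 0.0287). With all mice it was called when no filter was used (0.43, adjusted p = 0.00598), as was an effect of the opposite sign on ND (-0.33, adjusted p = 0.0358), and when libraries were scaled by their totals alone (0.55, adjusted p = 0.0443).

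Igfals, for the acid-labile subunit, was at 78.1, 34.5 and 54.6 CPM in ob/ob livers on HFD and 73.9, 54.4 and 54.95 CPM on ND. WT livers held 56.1, 72.2 and 69.1 CPM on HFD and 116, 85.5 and 114 CPM on ND. WT mice on ND stood above the other 3 groups, and these 3 overlapped. Igfals was lower in ob/ob mice over both diets (-0.51 ± 0.16, adjusted p = 0.0229) and on ND (-0.79 ± 0.23, adjusted p = 0.0177). Both calls were lost without ob/ob ND mouse 2 or 3 or WT ND mouse 1 or 3, with adjusted p = 0.0502 to 0.0545 over both diets and 0.0564 to 0.0664 on ND, and the first also with library totals alone (-0.37, adjusted p = 0.0589). The fall on HFD in WT mice was just short of the threshold (-0.68 ± 0.23, adjusted p = 0.0520). It passed with DESeq2 (-0.70, adjusted p = 0.0171), with its size factors in edgeR (-0.70, adjusted p = 0.0454), with the replicate number as a block (-0.64, adjusted p = 0.0464), with the 2 groups fitted alone (-0.70, adjusted p = 0.00787) and with no filter (-0.67, adjusted p = 9.46e-08). It also passed without ob/ob HFD mouse 1 or 2 or WT ND mouse 2 (-0.81 to -0.68, adjusted p = 0.0121 to 0.0441).

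The signal carriers moved less. Stat5a was at 15.8, 13.8 and 18.5 CPM in ob/ob livers on HFD and 16.9, 19.4 and 20.5 CPM on ND, against 16.6, 16.3 and 14.4 CPM in WT livers on HFD and 10.8, 11.7 and 14.3 CPM on ND. WT livers on ND were lowest on average, and did not overlap ob/ob livers on ND. Stat5a rose in ob/ob mice on ND (0.63 ± 0.14, adjusted p = 0.00316) and over both diets (0.32 ± 0.10, adjusted p = 0.0159). On HFD the genotypes overlapped (0.02 ± 0.13, adjusted p = 0.939). The HFD effect in WT mice passed with library totals alone (0.53, adjusted p = 0.0185) and without WT ND mouse 3 (0.49, adjusted p = 0.0429), and the difference of the diet effects passed without ob/ob HFD mouse 3 (-0.72, adjusted p = 0.0432).

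Stat5b was at 47.3 to 52.6 and 57.5 to 61.3 CPM in ob/ob livers on HFD and ND, and at 46.5 to 61.1 and 63.8 to 70.2 CPM in WT livers on HFD and ND. No contrast was called for Stat5b, and the 95% interval of the genotype effect, before adjustment, was -0.29 to -0.02. Over both diets a smaller level in ob/ob mice passed without WT HFD mouse 3 (-0.21, adjusted p = 0.00712), as it did on HFD in the same refit (-0.27, adjusted p = 0.0397). On ND the direction depended on the scaling. Per length, Stat5b was at 23.9, 25.4 and 25.7 TPM in ob/ob livers on ND, above WT livers on ND at 23.5, 23.2 and 22.4 TPM.

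The inhibitor Socs2 set WT mice on HFD apart. They held 1.83, 2.02 and 1.64 CPM, below each of the other 9 livers. Ob/ob livers held 12.8, 8.12 and 13.1 CPM on HFD and 14.8, 5.54 and 10.98 CPM on ND, and WT livers on ND 18.1, 5.37 and 7.21 CPM, so the genotypes overlapped on ND. Socs2 was higher in ob/ob than in WT mice on HFD (2.62 ± 0.48, adjusted p = 0.00267) and over both diets (1.32 ± 0.32, adjusted p = 0.00464), and lower on HFD than on ND in WT mice (-2.47 ± 0.49, adjusted p = 0.00384). Without WT ND mouse 1, whose level of 18.1 CPM was the highest of all, the fall in WT mice was -1.77, adjusted p = 0.0151. The diet effect in ob/ob mice was 0.12 ± 0.39, and the difference between the diet effects was called (2.59 ± 0.63, adjusted p = 0.0284). That last call was lost without ob/ob HFD mouse 1 or 3, ob/ob ND mouse 3, WT HFD mouse 1, 2 or 3, or WT ND mouse 1 (1.89 to 2.67, adjusted p = 0.0501 to 0.0678).

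Cish, the other inhibitor, was at 12.9, 6.88 and 8.53 CPM in ob/ob livers on HFD and 14.8, 5.19 and 9.41 CPM on ND. WT livers held 2.85, 3.43 and 2.12 CPM on HFD and 10.6, 1.99 and 3.42 CPM on ND. All 3 WT livers on HFD lay below all 6 ob/ob livers, while WT mouse 1 on ND lay among them. Cish rose in ob/ob mice over both diets (1.297 ± 0.36, adjusted p = 0.0105). On HFD alone the rise was called (1.73 ± 0.52, adjusted p = 0.0355), but not without ob/ob HFD mouse 1 or 3 or WT HFD mouse 1, 2 or 3 (1.44 to 1.90, adjusted p = 0.0575 to 0.106). On ND it was not called with all mice (0.87 ± 0.49, adjusted p = 0.184), and was without WT ND mouse 1 (1.86, adjusted p = 0.00887), the mouse that was also highest in Socs2. With all mice it was called with the replicate number as a block (0.95, adjusted p = 0.0480) and with no filter (0.88, adjusted p = 5.28e-05), as was the HFD effect in WT mice with no filter (-0.91, adjusted p = 4.53e-04).

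Bcl6, the male-type repressor, was at 6.11, 8.96 and 7.63 CPM in ob/ob livers on HFD and 9.54, 8.21 and 10.2 CPM on ND. In WT livers it was at 21.6, 27.1 and 61.1 CPM on HFD and 7.77, 67 and 33.1 CPM on ND. The WT livers on ND were far apart, and mouse 1, at 7.77 CPM, was in the range of the ob/ob livers. Bcl6 fell in ob/ob mice over both diets (-2.10 ± 0.41, adjusted p = 0.00107), on ND (-1.95 ± 0.57, adjusted p = 0.0164) and on HFD (-2.26 ± 0.58, adjusted p = 0.0164). The call on ND was lost without ob/ob ND mouse 2 or WT ND mouse 2 (-1.87 to -1.12, adjusted p = 0.0565 to 0.116), and that on HFD without ob/ob HFD mouse 1 or WT HFD mouse 3 (-2.12 to -1.68, adjusted p = 0.0514 to 0.0686).

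Across the 12 livers, the log2 CPM of Bcl6 and Cish had a Pearson correlation of -0.896, and those of Socs2 and Cish of 0.851. These describe 12 livers that share 4 groups, so no p is given. WT ND mouse 1 lay within the ob/ob range in Cish and Bcl6 and above it in Socs2.

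Cux2, the female-type factor, was at 5.74, 0.417 and 2.17 CPM in ob/ob livers on HFD and 5.503, 2.38 and 2.85 CPM on ND, against 0.293, 0.224 and 0.579 CPM in WT livers on HFD and 0, 0.260 and 0.0949 CPM on ND. The summed counts behind these values were 112 and 149 in ob/ob mice on HFD and ND, and 13 and 4 in WT mice on HFD and ND. Only ob/ob HFD mouse 2 came within the range of the WT livers. Cux2 rose over both diets (3.87 ± 0.65, adjusted p = 3.91e-04), on ND (4.80 ± 0.99, adjusted p = 0.00221) and on HFD (2.94 ± 0.83, adjusted p = 0.0251), where the sizes rest on few WT counts. The rise on HFD was not called with its 2 groups fitted alone (2.94, adjusted p = 0.0668) or without ob/ob HFD mouse 1 or WT HFD mouse 1 or 2 (1.84 to 2.82, adjusted p = 0.0810 to 0.122). Without WT ND mouse 2, which held most of the WT ND counts, the rise was 4.48 (adjusted p = 9.49e-04) over both diets and 6.03 (adjusted p = 0.00642) on ND.

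Elovl3, the male-type elongase, was lower in every ob/ob liver than in any WT liver. Ob/ob livers held 31.8, 11.6 and 21.3 CPM on HFD and 11.4, 16.9 and 13.8 CPM on ND. WT livers held 98.2, 115 and 144 CPM on HFD and 617, 865 and 480.2 CPM on ND. The ob/ob livers, the WT livers on HFD and the WT livers on ND formed 3 ranges without overlap. Elovl3 fell in ob/ob mice over both diets (-4.003 ± 0.23, adjusted p = 1.06e-07), on ND (-5.54 ± 0.35, adjusted p = 3.71e-07) and on HFD (-2.47 ± 0.31, adjusted p = 2.46e-04). The HFD lowered it in WT mice (-2.46 ± 0.30, adjusted p = 1.60e-04) and was not called in ob/ob mice (0.62 ± 0.31, adjusted p = 0.408) except with no filter (0.61, adjusted p = 2.47e-04), and the difference between the diet effects was 3.07 ± 0.43, adjusted p = 0.00134. All 5 calls held with any 1 mouse left out.

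**Figure D3:**
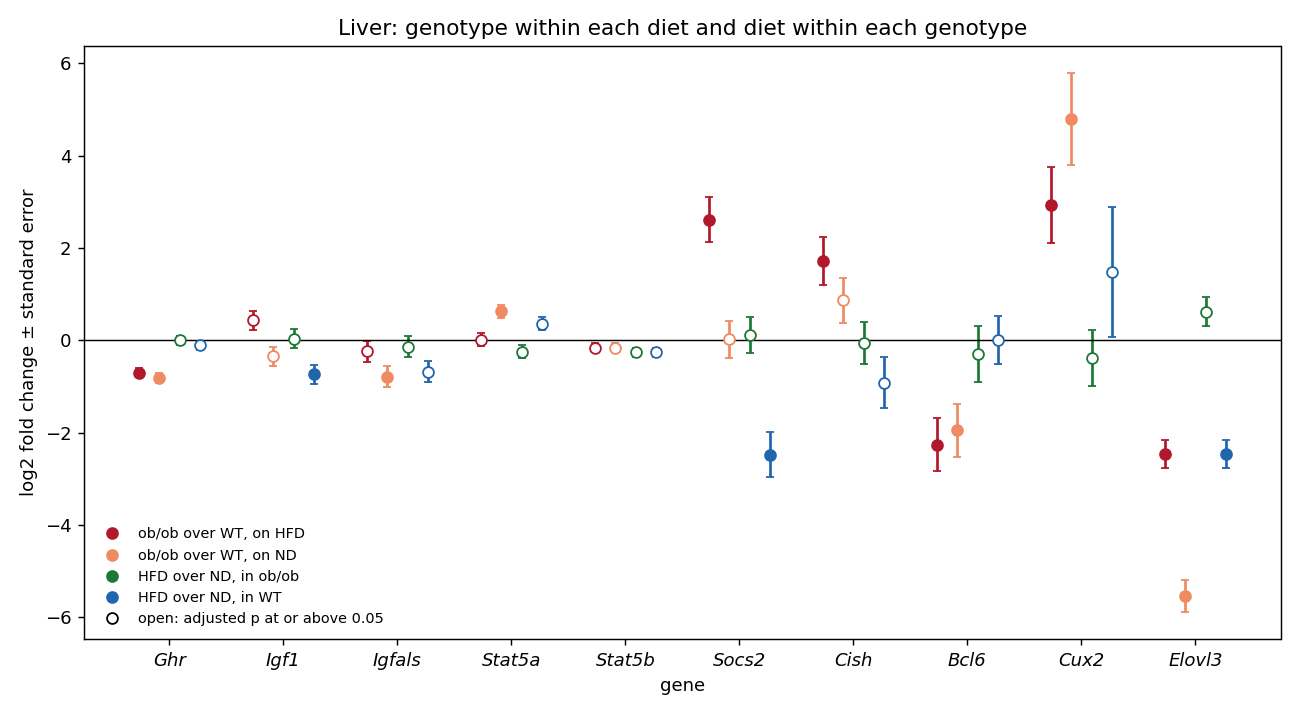
Log2 fold change (± standard error) of the 10 genes in liver for genotype on HFD, genotype on ND, HFD in ob/ob mice and HFD in WT mice, from left to right, with filled points where the adjusted p is under 0.05 and open points elsewhere. Elovl3 reaches -5.54 for genotype on ND and Cux2 4.80.

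The rest of the pathway was read from a list of 43 further genes of GH and IGF signalling, of which 29 passed the filter on low counts in liver. Over both diets 5 of the 29 rose and 6 fell in ob/ob mice (background 42.8%), and their median log2 fold change was 0.05, beside 0.02 over all genes tested. Of the 7 binding protein genes tested, Igfbp1 and Igfbp2 fell, Igfbp3 rose and the other 4 were not called. Igfbp1, whose product holds IGF1 and is known to be suppressed by insulin, was at 24.1, 88.3 and 56.6 CPM in ob/ob livers on HFD and 13.5, 15.9 and 32.1 CPM on ND, against 34.1, 61.9 and 59.1 CPM in WT livers on HFD and 219.5, 280.1 and 195 CPM on ND. WT livers on ND stood above all others, which lay between 13.5 and 88.3 CPM (-1.68 ± 0.29, adjusted p = 4.35e-04 for genotype). Igfbp2, a binding protein that leptin is known to induce in liver, was at 83.1, 105 and 15.2 CPM in ob/ob livers on HFD, 17.97, 25.1 and 11.6 CPM on ND, and 187, 187 and 185 CPM in WT livers on HFD and 532, 453 and 499 CPM on ND. The genotypes did not overlap (-3.11 ± 0.34, adjusted p = 1.41e-05).

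Igfbp3, whose product carries IGF1 and the acid-labile subunit in blood, rose (0.97 ± 0.12, adjusted p = 3.87e-05), while Igfals fell. Among the signal proteins, the kinase gene Tyk2 (-0.69 ± 0.09) fell, the phosphatase genes Ptpn11 (0.27 ± 0.06) and Ptpn1 (0.28 ± 0.07) rose slightly, and the somatostatin receptor gene Sstr2 rose (0.99 ± 0.27). The HFD changed 9 of the 29 genes in WT mice, 4 upward and 5 downward (background 21.8%), and the difference of the diet effects was called for 3 (background 6.17%), Igfbp1 (3.63 ± 0.57), Igfbp2 (3.30 ± 0.66) and Igfbp3 (-0.996 ± 0.25). In ob/ob mice the HFD gave 0 calls in this list.

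Of 15 liver transcription factors that act beside STAT5 or BCL6, 14 were tested, and 5 rose and 2 fell in ob/ob mice (background 42.8%). Onecut1, which is known to activate female-type genes, rose (1.07 ± 0.33), as did Trim24 (0.81 ± 0.14), Foxa2 (0.62 ± 0.11) and Nr3c1, the glucocorticoid receptor gene (0.18 ± 0.07). Cebpb (-0.96 ± 0.14) and Zbtb20 (-0.36 ± 0.08) fell. Zbtb20 lost its call with library totals alone (-0.21, adjusted p = 0.0614), and Nr3c1 with no filter (0.18, adjusted p = 0.0889) and with DESeq2 (0.18, adjusted p = 0.0504). Their median was 0.01, beside 0.02 over all genes.

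The targets of the male and female GH patterns were read from lists of genes known to be higher in the liver of either sex, without Elovl3 and Cux2. The lists were chosen with earlier results of these data known, so their counts are a description and not independent support. Of the male-biased genes, 17 were tested, and 0 rose and 16 fell in ob/ob mice over both diets (background 42.8%), with a median of -1.80 beside 0.02 over all genes. The remaining gene, Ugt2b38, was at -0.68 ± 0.36, adjusted p = 0.142. Cyp7b1, which encodes an oxysterol hydroxylase, was at 13.8, 9.10 and 13.6 CPM in ob/ob livers on HFD and 9.02, 7.79 and 5.77 CPM on ND, against 44.5, 50.2 and 97.2 CPM in WT livers on HFD and 241, 189.8 and 209 CPM on ND. It fell in the same steps as Elovl3, with no overlap between ob/ob livers, WT livers on HFD and WT livers on ND. Slco1a1, for an organic anion transporter (-6.35 ± 0.62), Susd4 (-4.02 ± 0.30), Cyp2u1 (-1.98 ± 0.14) and Cyp2d9 (-1.80 ± 0.21), both P450 genes, the complement gene C8a (-1.52 ± 0.14), Nudt7 (-1.61 ± 0.20) and Gstp1 (-0.94 ± 0.11) also fell.

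Of the female-biased genes, 15 were tested, and 13 rose and 0 fell (background 42.8%), with a median of 2.14. Hao2 (1.26 ± 0.60, adjusted p = 0.110) and Acot3 (0.08 ± 0.28, adjusted p = 0.842) were not called. Sult1e1, which encodes the oestrogen sulfotransferase, was at 15.4, 78.2 and 46.6 CPM in ob/ob livers on HFD and 34.3, 14.2 and 28.6 CPM on ND, against 0.512, 0.672 and 0.965 CPM in WT livers on HFD and 0.0863, 0.260 and 0.285 CPM on ND. The genotypes did not overlap. Ntrk2 (3.64 ± 0.27), Cyp2a4 (4.58 ± 0.42), Cyp2b9 (2.95 ± 0.49), Cyp17a1 (2.14 ± 0.28), Fmo2 (1.49 ± 0.16) and Abcd2 (0.94 ± 0.16) also rose. Several of these P450 and sulfotransferase genes have near-identical copies, so their single values are uncertain.

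The HFD also moved both lists in WT mice. On HFD 9 of 17 male-biased genes fell and 0 rose, and 6 of 15 female-biased genes rose and 0 fell (background 21.8%), against 0 calls in either list in ob/ob mice by edgeR (background 0.913%). The difference of the diet effects (background 6.17%) was called for 6 male-biased genes, all positive, among them Cyp7b1 (2.44 ± 0.39), and for 4 female-biased genes, all negative, among them Cyp2b9 (-6.97 ± 0.99) and Hao2 (-5.87 ± 1.13). The genotype and diet contrasts share the WT livers on ND, so these counts are not independent of each other.

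The genes most like a member across the 12 livers were named by the Pearson correlation of log2 CPM. For Elovl3 they were Ephx2 (0.986), Nrp1 (0.983) and Slc22a28 (0.983), for Cux2 Zfp91 (0.952), Pparg (0.951) and Rtcb (0.945), for Socs2 Zfx (0.920), Sumf1 (0.910) and Serinc1 (0.907), and for Igf1 the pseudogene Rpl3-ps1 (0.956), Pard3b (0.927) and Rps23 (0.908). These are descriptions over libraries that share their groups.

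In epididymal fat, Ghr, Igf1, Stat5a and Socs2 of WT mice on ND did not overlap the other 3 groups. The share of all genes set apart in this way was not computed. Differences from WT mice on ND were common, at 48.2% of genes for genotype on ND and 58.9% for the HFD in WT mice. Ghr, Stat5a, Stat5b, Socs2 and Cish were lower in ob/ob than in WT mice on ND, and Igf1 and Bcl6 were higher, so that 2 rose and 5 fell where 48.2% of genes were called. On HFD the genotypes differed for 2 members, both higher in ob/ob mice (background 17.5%), and over both diets 3 rose and 1 fell (background 35.9%). The HFD raised 2 members and lowered 5 in WT mice (background 58.9%). In ob/ob mice it gave 0 calls by edgeR and by DESeq2, with 1 member at an unadjusted p under 0.05 (background 0%). The difference of the diet effects was called for 4 members upward and 2 downward (background 40.1%).

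Sums of cell type markers in fat also differed between the groups. The 8 adipocyte markers summed to 15790 to 20320 CPM in ob/ob mice on HFD, 14380 to 21260 on ND, and 4005 to 12360 CPM in WT mice on HFD and 34030 to 44270 on ND. The 10 macrophage markers summed to 11500 to 16580, 8174 to 15460, 13390 to 23820 and 1695 to 1825 CPM in that order. WT fat on ND was highest in the first and lowest in the second, without overlap with any other group, and the part of these shifts in the results was not tested.

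Ghr in fat was at 682, 496 and 605 CPM in ob/ob mice on HFD and 570.5, 652 and 797 CPM on ND. WT mice held 124, 202 and 387 CPM on HFD and 1316, 1376 and 1001 CPM on ND. The ob/ob groups overlapped and lay between the WT groups. Ghr fell on HFD in WT mice (-2.37 ± 0.35, adjusted p = 1.67e-04), and the diet effect differed between genotypes (2.19 ± 0.47, adjusted p = 0.00396). It was lower in ob/ob than in WT mice on ND (-0.87 ± 0.33, adjusted p = 0.0485) and higher on HFD (1.32 ± 0.34, adjusted p = 0.0241). The call on ND was lost with library totals alone (-0.82, adjusted p = 0.0753) and without ob/ob HFD mouse 1, 2 or 3, ob/ob ND mouse 1, 2 or 3, WT HFD mouse 2, or WT ND mouse 1 or 2 (-1.01 to -0.76, adjusted p = 0.0577 to 0.145), and that on HFD without ob/ob HFD mouse 1 or 3 or WT HFD mouse 1 or 2 (1.01 to 1.3, adjusted p = 0.0510 to 0.0966) and with the 2 groups fitted alone (1.32, adjusted p = 0.0696). Over both diets it was not called, and passed without WT HFD mouse 3 (0.50, adjusted p = 0.0350).

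Igf1 in fat was at 304, 289 and 303 CPM in ob/ob mice on HFD, 327, 273 and 272 CPM on ND, 300.2, 365 and 266 CPM in WT mice on HFD and 194, 209 and 152 CPM on ND. WT mice on ND were lowest, without overlap. Igf1 rose in ob/ob mice on ND (0.65 ± 0.15, adjusted p = 0.00365) and on HFD in WT mice (0.75 ± 0.15, adjusted p = 0.00116), with a negative difference of the diet effects (-0.71 ± 0.21, adjusted p = 0.0180). Macrophages are a known source of Igf1. Over both diets the rise was 0.30 ± 0.10, adjusted p = 0.0423, a call that was lost with no filter (0.31, adjusted p = 0.0622), with DESeq2's size factors (0.29, adjusted p = 0.0596) and without ob/ob HFD mouse 1, 2 or 3, ob/ob ND mouse 1, 2 or 3, WT HFD mouse 1 or 3, or WT ND mouse 1 or 3 (0.24 to 0.33, adjusted p = 0.0516 to 0.105).

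Igfals in fat was at 52.3, 24.6 and 38.6 CPM in ob/ob mice on HFD and 31.7, 69.4 and 58.8 CPM on ND, against 2.30, 4.43 and 24.4 CPM in WT mice on HFD and 52.9, 47.6 and 38.6 CPM on ND. WT mouse 3 on HFD stood well above the other 2 of its group. Igfals fell on HFD in WT mice (-2.16 ± 0.65, adjusted p = 0.0143), a call that was lost without WT HFD mouse 2 (-1.79, adjusted p = 0.0551) and was -3.74 (adjusted p = 5.89e-05) without WT HFD mouse 3. Without that same mouse, ob/ob mice were higher on HFD (3.497, adjusted p = 0.00147) and over both diets (1.85, adjusted p = 6.91e-04), and the difference of the diet effects was 3.28, adjusted p = 8.76e-04. None of these 3 was called with all mice, except that on HFD with no filter (1.88, adjusted p = 0.0397).

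Of the signal carriers in fat, Stat5a was at 36.3 to 46.1 and 35.3 to 41.9 CPM in ob/ob mice on HFD and ND, against 25.7 to 38.3 and 51.3 to 55.01 CPM in WT mice on HFD and ND. WT mice on ND were highest. Stat5a fell on ND in ob/ob mice (-0.51 ± 0.14, adjusted p = 0.0108) and on HFD in WT mice (-0.74 ± 0.14, adjusted p = 8.90e-04), with a difference of the diet effects of 0.89 ± 0.20, adjusted p = 0.00452. On HFD the genotype effect passed without WT HFD mouse 3 (0.52, adjusted p = 0.0204). Stat5b fell on ND in ob/ob mice (-0.29 ± 0.07, adjusted p = 0.00494), at 61.9 to 66.7 against 77.3 to 79.6 CPM, and its difference of the diet effects was 0.38 ± 0.10, adjusted p = 0.0108. Without the filter on low counts neither Stat5b call held (adjusted p = 0.0654 on ND and 0.120 for the difference). The second was also lost with library totals alone (0.32, adjusted p = 0.0554).

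Socs2 in fat was at 5.75, 7.89 and 8.51 CPM in ob/ob mice on HFD and 6.99, 5.93 and 7.49 CPM on ND, against 9.56, 10.9 and 9.77 CPM in WT mice on HFD and 11.1, 12.7 and 12.2 CPM on ND. All 6 ob/ob mice lay below all 6 WT mice (-0.63 ± 0.11, adjusted p = 0.00149), a sign opposite to that in liver. The fall was also called on ND (-0.82 ± 0.16, adjusted p = 0.00164), and both calls held with any 1 mouse left out. Cish, at 1.46 to 3.75 CPM in ob/ob fat and 3.43 to 6.73 CPM in WT fat on ND, fell on ND (-0.997 ± 0.37, adjusted p = 0.0419) and on HFD in WT mice (-1.39 ± 0.37, adjusted p = 0.00779), with a difference of the diet effects of 1.63 ± 0.52, adjusted p = 0.0287. The call on ND was lost with no filter (-0.95, adjusted p = 0.0612), with the 2 groups fitted alone (-0.98, adjusted p = 0.0891), with library totals alone (-0.97, adjusted p = 0.0588) and without ob/ob HFD mouse 1 or 3, ob/ob ND mouse 1 or 2, or WT ND mouse 2 or 3 (-1.08 to -0.67, adjusted p = 0.0543 to 0.171), and that of the difference without ob/ob HFD mouse 1 or 3, ob/ob ND mouse 1 or 2, WT HFD mouse 1 or 2, or WT ND mouse 3 (1.31 to 1.63, adjusted p = 0.0515 to 0.0685).

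Bcl6 in fat, at 56.1 to 62.4 CPM in ob/ob fat and 32.8 to 47.3 CPM in WT fat on ND, rose on ND (0.57 ± 0.13, adjusted p = 0.00448) and on HFD in WT mice (0.48 ± 0.13, adjusted p = 0.00914), with a difference of the diet effects of -0.58 ± 0.19, adjusted p = 0.0286. The difference was lost without ob/ob HFD mouse 2, ob/ob ND mouse 3, WT HFD mouse 3, or WT ND mouse 1 or 3 (-0.56 to -0.47, adjusted p = 0.0506 to 0.0638). Over both diets the rise of 0.28 ± 0.09, adjusted p = 0.0358 was lost without ob/ob HFD mouse 1, 2 or 3, ob/ob ND mouse 1 or 3, WT HFD mouse 1 or 2, or WT ND mouse 1 or 3 (0.23 to 0.29, adjusted p = 0.0537 to 0.0791).

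Cux2 in fat was at 5.26, 3.24 and 3.40 CPM in ob/ob mice on HFD and 2.69, 4.83 and 3.67 CPM on ND, against 0.230, 0.5004 and 1.72 CPM in WT mice on HFD and 2.63, 2.85 and 3.29 CPM on ND. WT mice on HFD were lowest, without overlap. Cux2 rose in ob/ob mice on HFD (2.25 ± 0.53, adjusted p = 0.0185) and over both diets (1.303 ± 0.36, adjusted p = 0.0149), and fell on HFD in WT mice (-1.82 ± 0.53, adjusted p = 0.0120). The first was lost with the 2 groups fitted alone (2.25, adjusted p = 0.0593) and without ob/ob HFD mouse 1 or WT HFD mouse 2 (1.99 to 1.997, adjusted p = 0.0729 to 0.0809), and the last without WT HFD mouse 2 (-1.56, adjusted p = 0.0502). Without WT HFD mouse 3 they were 3.39 (adjusted p = 0.00143) and -2.92 (adjusted p = 1.89e-04), and the difference of the diet effects was called (3.02, adjusted p = 9.76e-04). With all mice DESeq2 called that difference (1.90, adjusted p = 0.0187).

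Elovl3 in fat turned on 1 mouse. It was at 1.81, 1.97 and 1.91 CPM in ob/ob mice on HFD and 1.69, 0.759 and 1.27 CPM on ND, against 0.153, 0.572 and 1.08 CPM in WT mice on HFD and 0.0797, 11.9 and 0.146 CPM on ND. WT mouse 2 on ND stood far above the other 11. No contrast was called with all mice (-0.03 ± 1.04, adjusted p = 0.985 for genotype). Without that mouse the direction turned, at 2.48, adjusted p = 0.00318 for genotype over both diets, 3.33, adjusted p = 0.00733 on ND and 2.31, adjusted p = 0.0379 for the HFD in WT mice, where leaving out WT ND mouse 1 gave -3.29 (adjusted p = 0.0316) and mouse 3 -3.28 (adjusted p = 0.0307).

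**Figure D4:**
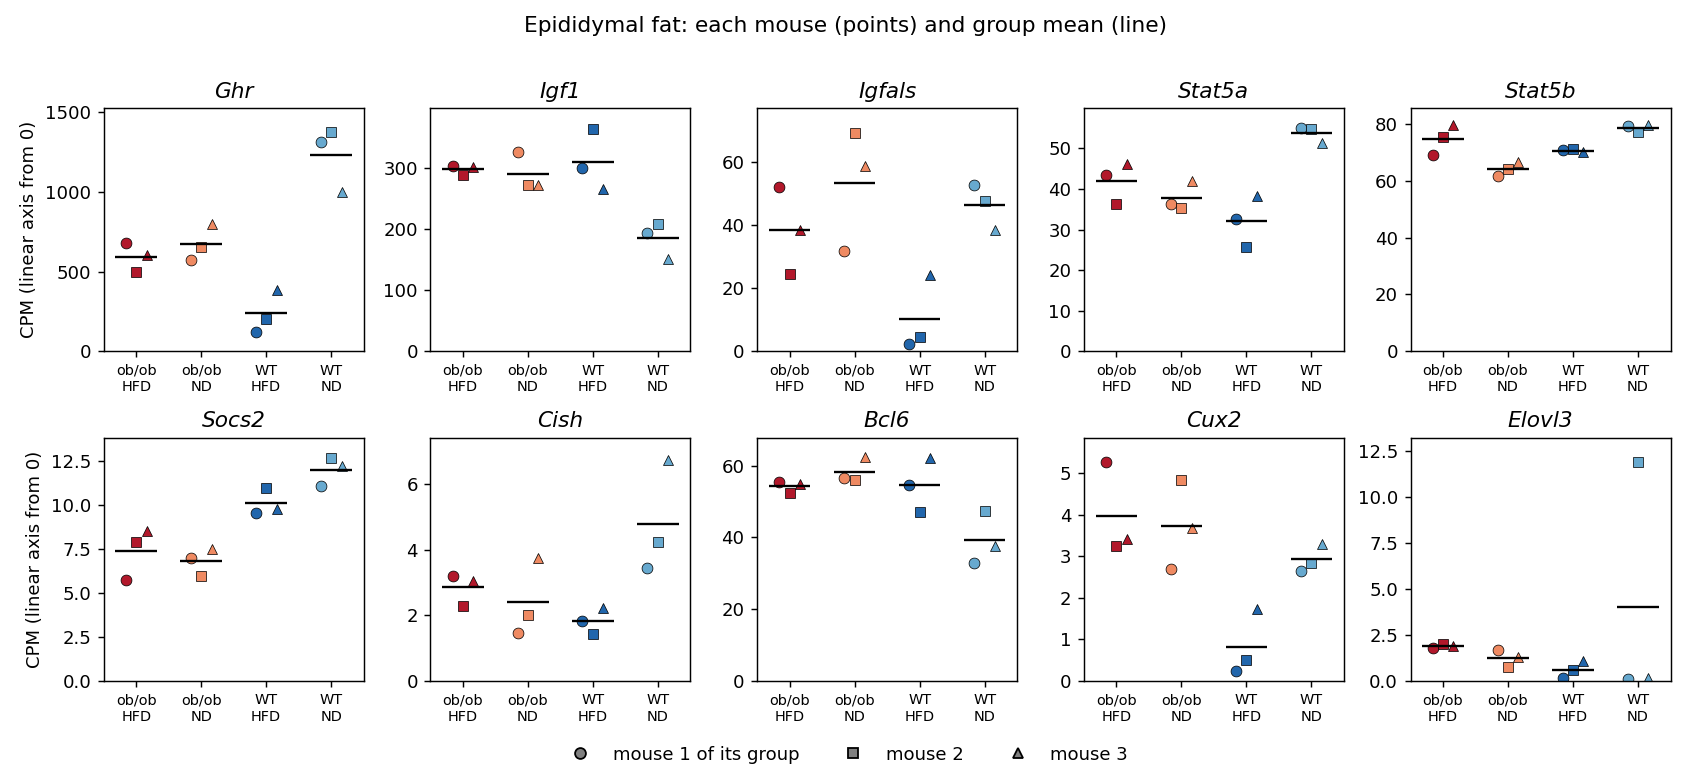
Level of each of the 10 genes in epididymal fat in CPM on linear axes from 0, for ob/ob HFD, ob/ob ND, WT HFD and WT ND mice from left to right; each point is 1 mouse and the line is the group mean (n = 3). Ghr of WT mice lies at 124 to 387 CPM on HFD and at 1001 to 1376 CPM on ND, with all ob/ob mice between, and WT mouse 2 on ND stands apart in Elovl3.

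Of the 35 further pathway genes tested in fat, 6 rose and 8 fell in ob/ob mice over both diets (background 35.9%), with a median of -0.04 beside 0.02 over all genes. Igfbp6, for a binding protein that prefers IGF2 (-1.57 ± 0.22), and the insulin receptor substrate genes Irs1 (-0.81 ± 0.17) and Irs2 (-0.69 ± 0.16) fell, and Sstr2 rose (3.80 ± 0.70).

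The aorta libraries carried strong markers of fat. Their 8 adipocyte markers summed to 17290 to 19950 and 16150 to 19450 CPM in ob/ob mice on HFD and ND, and 19440 to 19990 and 19630 to 28560 CPM in WT mice on HFD and ND, while all 6 smooth muscle markers together reached 260.1 to 1312 CPM. The 6 brown adipocyte markers summed to 7781 to 9770 and 6367 to 9879 CPM in ob/ob mice on HFD and ND, below all WT mice at 12120 to 14630 and 12300 to 16290 CPM. The 10 macrophage markers summed to 707 to 1652 and 739 to 1253 CPM against 436 to 871 and 385 to 1653 CPM in the same order, with overlap, and 4 of the 9 tested rose in ob/ob mice over both diets. Their part in the results was not tested.

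In aorta Ghr, Igf1, Igfals and Cux2 rose and Stat5a, Stat5b, Cish and Bcl6 fell in ob/ob mice over both diets, 4 each way, where 39.6% of genes were called. On ND 3 rose and 2 fell (background 31.7%), and on HFD 3 rose and 2 fell (background 16.2%). The HFD lowered Igf1 in WT mice, the 1 member called there (background 4.21%). In ob/ob mice the HFD gave 0 calls by edgeR and by DESeq2, with 3 members at an unadjusted p under 0.05 (background 0%), and the difference of the diet effects gave 0 calls by both tools with 4 such members (background 0.427%). With no filter on low counts the HFD in ob/ob mice was called for Igfals (-1.061, adjusted p = 0.0135) and Elovl3 (0.84, adjusted p = 0.0301), and the difference for Igf1 (0.84, adjusted p = 0.0380) and Cish (0.99, adjusted p = 0.0437).

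Ghr was at 357, 283 and 385 CPM in ob/ob aortas on HFD and 346, 284 and 443 CPM on ND, against 191, 198 and 185 CPM in WT aortas on HFD and 235, 177 and 244 CPM on ND. The genotypes did not overlap, and the sign was opposite to that in liver (0.77 ± 0.13, adjusted p = 5.49e-04). The call on ND (0.71 ± 0.18, adjusted p = 0.0106) was lost without ob/ob ND mouse 3 (0.51, adjusted p = 0.0556). Igfals was at 9.01, 4.70 and 10.2 CPM in ob/ob aortas on HFD and 17.9, 15.3 and 16.7 CPM on ND, against 3.02, 2.37 and 2.55 CPM in WT aortas on HFD and 3.19, 1.81 and 4.15 CPM on ND. It too was higher in all 6 ob/ob mice (2.02 ± 0.22, adjusted p = 2.78e-05), on ND (2.45 ± 0.30, adjusted p = 1.54e-04) and on HFD (1.60 ± 0.31, adjusted p = 0.00546).

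Igf1 was at 33.7 to 53.3 CPM in ob/ob aortas on HFD and 16.1 to 24.1 CPM in WT aortas on HFD, with no overlap (1.20 ± 0.22, adjusted p = 0.00412). On ND, at 40.3 to 60.8 CPM in ob/ob and 33.03 to 46.1 CPM in WT aortas, the groups overlapped and the effect was not called (0.33 ± 0.21, adjusted p = 0.251). Over both diets it was 0.77 ± 0.15, adjusted p = 0.00184. The fall on HFD in WT mice (-1.08 ± 0.22, adjusted p = 0.0173) was lost without WT HFD mouse 1 or 3 or WT ND mouse 2 or 3 (-1.07 to -0.96, adjusted p = 0.0501 to 0.0979).

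The falls were smaller. Stat5a fell over both diets (-0.59 ± 0.12, adjusted p = 0.00225), on ND (-0.59 ± 0.17, adjusted p = 0.0207) and on HFD (-0.60 ± 0.17, adjusted p = 0.0335), the last lost with library totals alone (-0.50, adjusted p = 0.0957) and without ob/ob HFD mouse 1, 2 or 3 or WT HFD mouse 1, 2 or 3 (-0.67 to -0.50, adjusted p = 0.0532 to 0.129). That on ND was lost with the 2 groups fitted alone (-0.59, adjusted p = 0.0643) and without ob/ob ND mouse 2 or WT ND mouse 1 or 3 (-0.51 to -0.48, adjusted p = 0.0644 to 0.0799). Stat5b fell over both diets (-0.23 ± 0.07, adjusted p = 0.0281), a call that was lost without the filter (adjusted p = 0.193), with library totals alone (-0.19, adjusted p = 0.0784) and without ob/ob ND mouse 3, WT HFD mouse 1 or 3, or WT ND mouse 1 (-0.22 to -0.19, adjusted p = 0.0508 to 0.0615). The inhibitor gene Cish fell on ND (-1.055 ± 0.26, adjusted p = 0.0103) and over both diets (-0.55 ± 0.19, adjusted p = 0.0337), the second lost with library totals alone (-0.50, adjusted p = 0.0817) and without ob/ob HFD mouse 2 or 3, ob/ob ND mouse 2, WT HFD mouse 1, 2 or 3, or WT ND mouse 3 (-0.56 to -0.44, adjusted p = 0.0516 to 0.0884). Socs2 was called in no contrast with all mice and the filter, and for the HFD in WT mice with no filter (-0.89, adjusted p = 0.0102) and without WT ND mouse 1 (-1.09, adjusted p = 0.0437).

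The repressor gene Bcl6 was at 25.4, 51.4 and 31.3 CPM in ob/ob aortas on HFD and 41.7, 43.9 and 57.9 CPM on ND, against 67.9, 73.6 and 85.1 CPM in WT aortas on HFD and 54.9, 57.6 and 68.99 CPM on ND. It fell on HFD without overlap (-1.07 ± 0.22, adjusted p = 0.00797) and over both diets (-0.71 ± 0.16, adjusted p = 0.00369). Cux2 rested on 25 and 59 counts in ob/ob aortas fed HFD and ND, against 10 and 4 in WT mice on HFD and ND. It rose over both diets (2.45 ± 0.46, adjusted p = 0.00131) and on ND (3.69 ± 0.66, adjusted p = 0.00176), and without WT ND mouse 2 these were 3.04 (adjusted p = 6.91e-04) and 4.88 (adjusted p = 0.00156).

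Elovl3, which brown fat expresses in the cold, was at 147, 214 and 137 CPM in ob/ob aortas on HFD and 108, 94.5 and 72.7 CPM on ND, against 202, 197 and 199 CPM in WT aortas on HFD and 249.7, 152 and 75.3 CPM on ND. The groups overlapped and edgeR made no call for genotype (-0.53 ± 0.23, adjusted p = 0.0812, 95% interval -0.98 to -0.08). DESeq2 called it (-0.53, adjusted p = 0.0461), as did edgeR with no filter (-0.52, adjusted p = 0.00316) and without WT ND mouse 3 (-0.70, adjusted p = 0.00669). On ND it was called by DESeq2 (-0.80, adjusted p = 0.0407) and with no filter (-0.77, adjusted p = 0.00248). Of 32 further pathway genes tested, 10 rose and 2 fell (background 39.6%), with a median of 0.15 beside -0.01 over all genes. Ptpn11 (0.73 ± 0.10), Jak1 (0.46 ± 0.08) and Stc2, which encodes an inhibitor of the protease that frees IGF1 (1.83 ± 0.32), rose.

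Skeletal muscle libraries differed widely in sums of cell type markers. The 8 muscle markers summed to 132100, 5181 and 19790 CPM in ob/ob mice on HFD and 28430, 65510 and 28880 CPM on ND, against 110000, 118100 and 94880 CPM in WT mice on HFD and 255100, 116400 and 157600 CPM on ND. The 8 adipocyte markers summed to 3808, 23630 and 16300 CPM in ob/ob mice on HFD and 12340 to 17280 CPM on ND, against 5855 to 9843 and 512 to 2736 CPM in WT mice on HFD and ND. The 10 macrophage markers summed to 585, 2189 and 2405 CPM in ob/ob mice on HFD and 1619, 1643 and 2110 CPM on ND, against 1167, 1039 and 502 CPM in WT mice on HFD and 211, 397 and 307 CPM on ND. Ob/ob HFD mouse 1 stood apart from the other 2 of its group in all 3 sums and lay within the range of the WT mice. The part of these shifts in the muscle results was not tested. Of the 7 tissues, the scaling of the libraries shifted genotype effects over both diets most in muscle. With library totals alone in place of TMM every gene shifted upward in ob/ob mice by 0.41 on the log2 scale over both diets and 0.55 on ND, and 84.9% of all calls over both diets were upward, beside 57.2% with TMM.

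Over both diets Ghr, Igf1, Igfals, Stat5a and Cux2 rose and Stat5b and Bcl6 fell in ob/ob muscle, 5 and 2, where 48.6% of genes were called. On ND 5 rose and 1 fell (background 45%). On HFD edgeR called 0 members and DESeq2 called Cish alone, 1 member, with 3 at an unadjusted p under 0.05 (background 0.0194%). Without ob/ob HFD mouse 1 edgeR called 8, and the share of all genes called in that refit is not given here. The HFD in WT mice gave 0 calls by edgeR and 1 by DESeq2, Igfals, with 4 at an unadjusted p under 0.05 (background 0%), and 3 by edgeR without that mouse. The HFD in ob/ob mice gave 0 calls by both tools and 0 at an unadjusted p under 0.05 (background 0%), and the difference of the diet effects 0 by both tools with 2 such members (background 0%). Without the 2 libraries farthest from the median muscle library, ob/ob HFD mouse 2 and WT ND mouse 1, 7 members passed over both diets, with Elovl3 in place of Cux2. On ND 7 passed in that refit, with Socs2 added (-0.70, adjusted p = 0.0435). The direction of Socs2 on ND depended on the scaling. Per length it was at 2.27, 1.22 and 2.16 TPM in ob/ob muscle on ND, against 1.03, 1.91 and 1.565 TPM in WT muscle on ND. The shares of all genes called in these refits with fewer libraries are not given here.

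Ghr was at 232, 739 and 563 CPM in ob/ob muscle on HFD and 595, 453 and 717 CPM on ND, against 364, 334 and 261 CPM in WT muscle on HFD and 170.0, 162 and 229 CPM on ND. Ob/ob HFD mouse 1 was the only ob/ob mouse within the WT range. Ghr rose over both diets (1.17 ± 0.27, adjusted p = 0.00660) and on ND (1.65 ± 0.39, adjusted p = 0.00836), and on HFD without ob/ob HFD mouse 1 (1.03, adjusted p = 0.0144). Igf1 was at 89.1 to 134 CPM in ob/ob and 20.5 to 35.1 CPM in WT muscle on ND, a rise of 1.94 ± 0.33, adjusted p = 0.00331. Igfals was at 37.5 to 66.1 CPM in ob/ob and 3.72 to 7.52 CPM in WT muscle on ND, a rise of 3.40 ± 0.59, adjusted p = 0.00331. Over both diets Igf1 rose by 1.45 ± 0.23, adjusted p = 0.00190 and Igfals by 2.24 ± 0.39, adjusted p = 0.00240. Without ob/ob HFD mouse 1, Igf1 (1.27, adjusted p = 0.00451) and Igfals (1.54, adjusted p = 0.00680) also rose on HFD, and the HFD raised both in WT mice (0.98, adjusted p = 0.0183 and 2.17, adjusted p = 0.00487).

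Stat5b, the most abundant STAT5 transcript of muscle, was at 195, 40.1 and 58.6 CPM in ob/ob muscle on HFD and 68.2, 123.4 and 62.9 CPM on ND, against 186, 195 and 213 CPM in WT muscle on HFD and 319, 176 and 264 CPM on ND. The 5 libraries with the lowest muscle marker sums also had the lowest Stat5b, and ob/ob HFD mouse 1 was again among the WT mice. Stat5b fell over both diets (-1.295 ± 0.37, adjusted p = 0.0149) and on ND (-1.58 ± 0.52, adjusted p = 0.0312), the second lost with library totals alone (-1.04, adjusted p = 0.0568) and without ob/ob ND mouse 1 or 3 or WT ND mouse 1 or 3 (-1.54 to -1.37, adjusted p = 0.0639 to 0.104). On HFD it was called without ob/ob HFD mouse 1 (-2.003, adjusted p = 0.00360). Stat5a went the other way, at 0.60 ± 0.13, adjusted p = 0.00499 over both diets and 0.88 ± 0.19, adjusted p = 0.00564 on ND, and without ob/ob HFD mouse 1 it passed on HFD (0.51, adjusted p = 0.0213) and for the HFD in WT mice (0.50, adjusted p = 0.0385).

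Of the other members in muscle, Bcl6 fell over both diets (-0.41 ± 0.12, adjusted p = 0.0168), though not without the filter (adjusted p = 0.0560), and on HFD without ob/ob HFD mouse 1 (-0.61, adjusted p = 0.0193). This fall turned on the scaling. With library totals alone it was -0.01, adjusted p = 0.955, and per length Bcl6 was at 21.4, 20.8 and 16.4 TPM in ob/ob muscle on ND, above WT muscle on ND at 13.96, 14.7 and 14.1 TPM. Cux2 rose over both diets (1.19 ± 0.42, adjusted p = 0.0362) and on ND (1.98 ± 0.61, adjusted p = 0.0245). The first was lost with the replicate number as a block (1.21, adjusted p = 0.0504) and without ob/ob HFD mouse 2 or 3, ob/ob ND mouse 1 or 3, WT HFD mouse 1, 2 or 3, or WT ND mouse 2 (0.97 to 1.27, adjusted p = 0.0509 to 0.0851) and the second without ob/ob ND mouse 1 or 3 or WT ND mouse 2 (1.71 to 2.12, adjusted p = 0.0528 to 0.0812). The inhibitor gene Cish was not called over both diets (0.85 ± 0.37, adjusted p = 0.0736) by edgeR but was by DESeq2 (0.87, adjusted p = 0.0444), and by edgeR with library totals alone (1.24, adjusted p = 0.0155) and without ob/ob HFD mouse 2, ob/ob ND mouse 2, or WT HFD mouse 2 (0.99 to 1.13, adjusted p = 0.0369 to 0.0474). Without ob/ob HFD mouse 1, Cish (1.60, adjusted p = 0.0375) and Elovl3 (3.29, adjusted p = 0.0473) passed on HFD. Elovl3 rested on few counts in muscle, at 0, 7 and 79 in ob/ob mice on HFD and 8, 13 and 12 on ND. WT mice held 3, 4 and 2 counts on HFD and 17, 1 and 0 on ND. Its calls without 1 or 2 libraries thus lean on ob/ob HFD mouse 3, which held the 79 counts. Socs2 was called in no contrast with all libraries.

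Of 33 further pathway genes tested in muscle, 12 rose and 4 fell over both diets (background 48.6%), with a median of 0.17 beside 0.01 over all genes. Igfbp3 (2.68 ± 0.25), Stc2 (1.93 ± 0.21) and the prolactin receptor gene Prlr (3.02 ± 0.42) rose, and Jak2, for the kinase that GHR activates, fell (-0.52 ± 0.08), though not with library totals alone (-0.11, adjusted p = 0.415).

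In heart the inhibitor genes Socs2 and Cish rose and Bcl6 and Cux2 fell over both diets in ob/ob mice. These were 2 and 2 of 9 members tested, where 30.1% of genes were called. On ND 1 rose (background 12.7%), and on HFD 2 rose and 1 fell (background 17.2%). The HFD in WT mice, the HFD in ob/ob mice and the difference of their effects each gave 0 calls by edgeR and DESeq2, with 1, 0 and 1 members at an unadjusted p under 0.05 (backgrounds 0.256%, 0.0219% and 0%).

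Cish was at 58.9, 53.9 and 69.9 CPM in ob/ob hearts on HFD and 58.5, 55.1 and 84.1 CPM on ND, against 25.8, 26.9 and 35.2 CPM in WT hearts on HFD and 39.9, 27.1 and 44.96 CPM on ND. All 6 ob/ob hearts lay above all 6 WT hearts. Cish rose over both diets (0.94 ± 0.13, adjusted p = 6.07e-05), on ND (0.82 ± 0.18, adjusted p = 0.00697) and on HFD (1.058 ± 0.18, adjusted p = 0.00119).

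Socs2 was at 36.5, 37.5 and 52.5 CPM in ob/ob hearts on HFD and 42.4, 32.9 and 35 CPM on ND, against 28.02, 25.02 and 27.04 CPM in WT hearts on HFD and 29.2, 24.1 and 33.6 CPM on ND. The groups overlapped slightly on ND. Socs2 rose over both diets (0.50 ± 0.10, adjusted p = 0.00144) and on HFD (0.66 ± 0.14, adjusted p = 0.00499). Bcl6 was at 9.13 to 11.2 CPM in ob/ob hearts and 15.2 to 15.98 CPM in WT hearts on HFD, a log2 fold change of -0.61 ± 0.12, adjusted p = 0.00285, and over both diets it was -0.40 ± 0.09, adjusted p = 0.00229. Cux2, at 3.60 to 4.52 and 2.52 to 4.22 CPM in ob/ob hearts on HFD and ND against 4.85 to 5.35 and 4.996 to 5.56 CPM in WT hearts on HFD and ND, fell over both diets (-0.46 ± 0.13, adjusted p = 0.0161), the opposite of its sign in liver. These heart calls held with any 1 mouse left out. On ND, Socs2 passed with no filter (0.34, adjusted p = 0.0267) and Cux2 with library totals alone (-0.66, adjusted p = 0.0335).

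Ghr and Igf1 were not called in heart. Ghr ranged from 99.3 to 120.1 CPM over all 12 hearts, with a genotype interval of -0.13 to 0.10 on the log2 scale, and Igf1 had -0.34 to 0.04. Stat5a passed on HFD only without WT HFD mouse 3 (0.45, adjusted p = 0.0324). The 7 cardiomyocyte markers summed to 30070 to 35750 and 34690 to 37020 CPM in ob/ob hearts on HFD and ND, and 26680 to 29640 and 29160 to 34800 CPM in WT hearts on HFD and ND. The 10 macrophage markers summed to 283 to 419.9 and 292 to 414 CPM against 442 to 537 and 433 to 572 CPM in the same order, without overlap between genotypes, and their part was not tested. Of 30 further pathway genes, 5 rose and 6 fell (background 30.1%), with a median of 0.06 beside -0.01 over all genes. Ptpn11 (0.63 ± 0.07) and Igfbp3 (0.63 ± 0.12) rose, and Jak1 (-0.36 ± 0.07) fell.

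In hypothalamus, which controls the release of growth hormone, Igf1 and Socs2 rose and Stat5b fell in ob/ob mice over both diets, 2 and 1 of 8 members tested, where 15.5% of genes were called. Igf1 was at 18.03, 20.8 and 16.98 CPM in ob/ob mice on HFD and 17.2, 19.5 and 18.4 CPM on ND, against 11.6, 12.8 and 6.90 CPM in WT mice on HFD and 17.2, 7.71 and 13.1 CPM on ND. Only WT mouse 1 on ND reached the ob/ob range (0.69 ± 0.17, adjusted p = 0.0176), and this call held with any 1 mouse left out. Socs2 (0.36 ± 0.11, adjusted p = 0.0397) was lost without ob/ob HFD mouse 1 or 2, ob/ob ND mouse 1 or 3, WT HFD mouse 1, 2 or 3, or WT ND mouse 2 or 3 (0.30 to 0.39, adjusted p = 0.0517 to 0.112). Stat5b (-0.29 ± 0.09, adjusted p = 0.0384) was lost without ob/ob HFD mouse 1 or 3, ob/ob ND mouse 1 or 3, WT HFD mouse 1, 2 or 3, or WT ND mouse 2 (-0.31 to -0.23, adjusted p = 0.0556 to 0.103). Without WT ND mouse 1, 5 members passed over both diets, with Stat5a (0.47, adjusted p = 0.0293) and Cux2 (0.26, adjusted p = 0.0173) among them. The share of all genes called without that mouse is not given here. All 5 oligodendrocyte markers fell over both diets as well, with a median log2 fold change of -0.31, and summed to 5589 to 6815 and 5285 to 5855 CPM in ob/ob mice on HFD and ND, against 6554 to 7236 and 7122 to 7983 CPM in WT mice on HFD and ND. Their part in the results was not tested.

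On each diet alone edgeR called 0 members in hypothalamus. On ND 3 had an unadjusted p under 0.05 and DESeq2 called 0 (background 5.3%), and on HFD 4 did and DESeq2 called 1, Igf1 (background 2.13%). With no filter Igf1 passed on both (0.55, adjusted p = 0.00971 on ND and 0.83, adjusted p = 1.30e-05 on HFD) and Stat5b on HFD (-0.40, adjusted p = 0.0208), and so on HFD with the 2 groups fitted alone (0.84, adjusted p = 0.0222 for Igf1 and -0.39, adjusted p = 0.0316 for Stat5b). Without WT ND mouse 1, Igf1 (0.82, adjusted p = 0.0260) and Stat5a (0.71, adjusted p = 0.0458) passed on ND. On HFD, Igf1 passed without WT ND mouse 1 or 2 (0.83 to 0.84, adjusted p = 0.0176 to 0.0479) and Stat5b without WT ND mouse 1 (-0.39, adjusted p = 0.0440). The HFD in WT mice, the HFD in ob/ob mice and the difference of their effects gave 0 calls by both tools and 0 at an unadjusted p under 0.05 (background 0% each). Among the called genes of 41 further pathway genes, Igfbp4 rose (0.47 ± 0.12) and Grb14 (-0.31 ± 0.09), Pappa (-0.77 ± 0.21) and Prlr (-0.45 ± 0.14) fell over both diets, of which Prlr lost its call with the replicate number as a block (-0.46, adjusted p = 0.0704) and with library totals alone (-0.44, adjusted p = 0.0590).

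In hippocampus edgeR and DESeq2 called 0 of 8 members for genotype over both diets, with 1 at an unadjusted p under 0.05 (background 13.9%). The other 5 contrasts also gave 0 calls by both tools and 0 at an unadjusted p under 0.05, with 3.48% of genes called for genotype on ND, 1.55% on HFD and 0% for the diet contrasts. Stat5b alone passed over both diets without ob/ob ND mouse 2 (-0.33, adjusted p = 0.0379). The genotype intervals were 0.04 to 0.43 for Ghr and -0.07 to 0.56 for Igf1. Of 37 further pathway genes, Tyk2 (-0.49 ± 0.08), Sh2b1, for an adaptor of JAK2 (-0.33 ± 0.06), and the IGF1 receptor gene Igf1r (-0.26 ± 0.08) fell and 0 rose. Igf1r lost its call with the replicate number as a block (-0.26, adjusted p = 0.0638), with no filter (-0.26, adjusted p = 0.0688) and with library totals alone (-0.23, adjusted p = 0.0834).

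**Figure D5:**
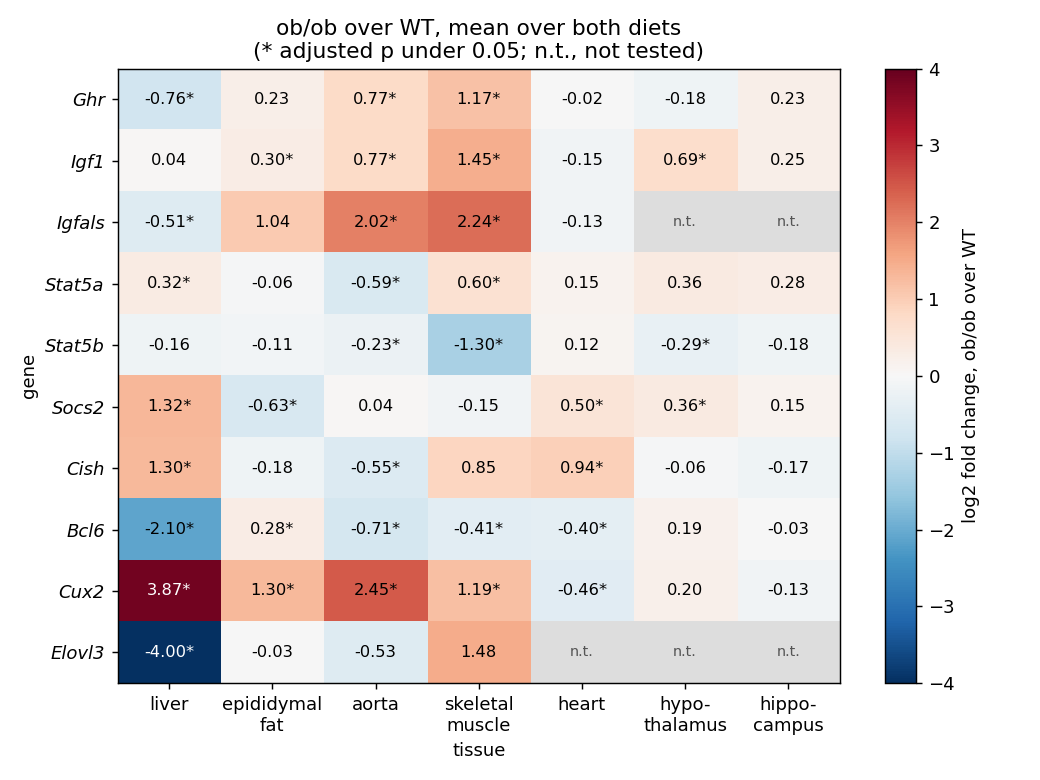
Log2 fold change of ob/ob over WT mice, mean over both diets, for the 10 genes (rows) in the 7 tissues (columns); an asterisk marks an adjusted p under 0.05 and n.t. marks genes too low to be tested. Ghr is -0.76 in liver and 1.17 in muscle, and Cux2 is 3.87 in liver and -0.46 in heart.

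Set side by side over both diets, Ghr fell in liver and rose in aorta and muscle, and Socs2 rose in liver, heart and hypothalamus and fell in epididymal fat. In liver the rise of Socs2 was called on HFD, and the genotypes overlapped on ND. Cish rose in liver and heart and fell in aorta. Igfals fell in liver and rose in aorta and muscle. Bcl6 fell in liver, aorta and heart and rose in fat, while its fall in muscle turned on the scaling, and Cux2 rose in liver, fat, aorta and muscle and fell in heart. Some of these calls were lost in many of the 12 refits without 1 mouse. These were Bcl6 in fat (9 of 12), Socs2 in hypothalamus (9), Cux2 in muscle (8), Cish in aorta (7) and Igfals in liver (4). The tissues were fitted separately and differences between them were not tested.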

How the data were processed

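RNA was measured in 7 tissues of 12 mice, in 84 libraries of 10499528 to 17040790 counts. The number of mice rests on the sample titles, where a number within a group was taken as the same mouse in every tissue. This was not checked. Per the labels, RNA was extracted with TRIzol and sequenced on a NextSeq after TruSeq preparation. Per the submitters' processing notes, the authors used Trimmomatic 0.36, HISAT2 2.0.5, the build GRCm38 and featureCounts 1.5.0-p2, while the header of the deposited count table names featureCounts 1.5.1 and no strand option. The deposited values are whole counts per gene, with no normalization, and 0 columns of other samples were left aside.

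Each tissue was fitted on its 12 libraries with 1 mean per group by edgeR 4.0.16 (quasi-likelihood test, limma 3.58.1, R 4.3.3), after TMM scaling and a filter on low counts (minimum 10 per library, 15 in all). P-values were adjusted by Benjamini-Hochberg over all genes tested for each contrast of each tissue, and a gene was called under 0.05. Standard errors are the fold change divided by the root of its F statistic. The contrasts were ob/ob minus WT (over both diets and on each diet), HFD minus ND in each genotype, and the difference between the diet effects. TPM used the gene lengths of the table, and the likeness of genes used log2(CPM + 0.5) of genes with a mean log2 CPM of at least 1. The fits were also run on simulated counts in which only a small part of the genes differed between genotypes. Many contrasts of the real data had far more calls, so that run does not vouch for the scaling here.

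Of the members, 65 pairs of gene and tissue passed the filter. Elovl3 was too low in heart, hypothalamus and hippocampus, and Igfals in hypothalamus and hippocampus. All 84 libraries were closest to libraries of their own tissue, and no 2 replicates agreed within counting noise (chi-square per degree of freedom 2.63 to 569.7). P-values of the main fits measure the spread between mice, each given as a library of its own. With no filter, adjusted p moved far at nearly the same fold change. Cish in liver on ND went from adjusted p = 0.184 at 0.87 to adjusted p = 5.28e-05 at 0.88. A call made only with no filter therefore does not show a firmer difference between mice. The fits were repeated with DESeq2 1.42.0, with its size factors in edgeR, with no filter, with library totals alone, with a replicate block, with the groups of a contrast alone, and without each mouse in turn. Same-numbered mice did not deviate together in every pair of any tissue, so the numbers were not taken as pairs.

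The members and the gene lists were chosen with earlier results of these data known. Of each list, up to 8 called genes with the smallest p in liver and up to 4 in another tissue were named, and the 3 most alike genes for 4 members, leaving out some genes that are not reported here. In 6 sample titles the diet is spelled HDF, which was read as HFD.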

Additional observations from a re-analysis of the deposited data

Results flagged for a closer look

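The effect of the HFD differed between ob/ob and WT mice, by the test of that difference itself, for 8 results. In liver it was 2.59 ± 0.63 on the log2 scale for Socs2 (adjusted p = 0.0284), from 0.12 ± 0.39 in ob/ob mice and -2.47 ± 0.49 in WT mice. For Elovl3 in liver it was 3.07 ± 0.43 (adjusted p = 0.00134), from 0.62 ± 0.31 in ob/ob mice and -2.46 ± 0.30 in WT mice. Elovl3 kept its call without any 1 mouse, and Socs2 lost it without 7 of the 12.

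In epididymal fat the difference was 2.19 ± 0.47 for Ghr, 1.63 ± 0.52 for Cish, 0.89 ± 0.20 for Stat5a and 0.38 ± 0.10 for Stat5b, and -0.71 ± 0.21 for Igf1 and -0.58 ± 0.19 for Bcl6. WT fat on ND was the group apart in Ghr, Stat5a and Igf1, as it was in the adipocyte and macrophage marker sums, whose part was not tested.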

How the results depend on the processing

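Across 10 members, 7 tissues and 6 contrasts, 94 of 390 tests were called. Of 1128 refits of these calls without 1 mouse, 987 kept the call, 141 lost it and 0 changed sign, and 47 calls were gained. Of 535 refits under the other settings, 512 kept it and 23 lost it, and 45 were gained. With a replicate block 95 tests were called, against 94 without it, 102 with DESeq2, 94 with its size factors, 111 with no filter and 89 with library totals alone in place of TMM.

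Counts of members called moved by over 1.5 times in these cases, and the cause was not tested. With no filter the count was 2 for genotype on ND in heart and 1 in hypothalamus, 2 for genotype on HFD in hypothalamus, and for the HFD in WT mice 5 in liver, 2 in aorta and 1 in muscle. For the HFD in ob/ob mice it was 3 in all (1 in liver, 2 in aorta), and for the difference of the diet effects 13 in all (6 in liver, 2 in aorta). With the groups of a contrast fitted alone it was 0 for genotype on HFD in epididymal fat, 2 in hypothalamus, and 2 for the HFD in WT muscle. With library totals alone it was 2 for genotype on ND in heart. DESeq2 gave 1 for genotype on HFD in muscle, 1 in hypothalamus, and 1 for the HFD in WT muscle.

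Without 1 mouse, the count for genotype over both diets was 2 to 5 in epididymal fat, 1 to 5 in hypothalamus and 0 to 1 in hippocampus. For genotype on ND it was 0 to 2 in hypothalamus, and on HFD 3 to 6 in liver, 0 to 4 in epididymal fat, 0 to 8 in muscle and 0 to 2 in hypothalamus. For the HFD in WT mice it was 0 to 2 in aorta and 0 to 3 in muscle, and for the difference of the diet effects 1 to 2 in liver. The shares of all genes called in the refits without 1 mouse are not given here. Elovl3 in epididymal fat turned its direction without WT ND mouse 2, at 2.48 for genotype over both diets (range without 1 mouse -0.32 to 2.48), 3.33 on ND (-2.27 to 3.33) and 2.31 for the HFD in WT mice (-3.40 to 2.31). Insr in muscle, which fell over both diets, was at 0.068 on the log2 scale (adjusted p = 0.681) with library totals alone. That scaling shifted all genes over both diets by 0.15 in liver and 0.41 in muscle, and the share of upward calls over all genes was 75.1% against 51.7% in liver, 84.9% against 57.2% in muscle, 31.1% against 48.4% in heart and 57.1% against 46.2% in hippocampus. It and the refit without 2 muscle libraries were chosen after seeing the data. Low counts limit several results, among them Cux2 in liver, in aorta and in WT fat on HFD. Elovl3 in epididymal fat and muscle and Cish in WT muscle on HFD are also limited in this way.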

Other observations

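The dissected brain regions differed in markers of neighbouring tissue from mouse to mouse. In hypothalamus the 7 pituitary markers summed to 2.35 to 41.2 CPM in ob/ob mice on HFD and 1.98 to 27.9 CPM on ND, against 1.78 to 25.7 CPM in WT mice on HFD and 1.47 to 4.41 CPM on ND, where Gh and Prl were at 0 in all 3 mice. In hippocampus the 6 markers of choroid plexus and ependyma summed to 1524 to 7889 CPM in ob/ob mice on HFD and 40.04 to 7866 CPM on ND, against 813 to 6495 CPM in WT mice on HFD and 74.3 to 6026 CPM on ND. The groups overlapped in both sums.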
